A study of Ovis aries with 22 samples.

Results

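The genes described here are IL2RB, CCL5, PRF1, CTSW, NKG7, CYTIP and PLAC8, genes of cytotoxic T cells and natural killer (NK) cells that were picked by name because they were higher in the pulmonary autograft of sheep. They are 7 of the 26200 named rows of the count tables, and each of the 7 has a row. The tissue was the wall of the arterial sinuses at the root of the great arteries. In the Ross procedure the animal's own pulmonary root is moved into the aortic position, where it is called the autograft. Autograft sinus came from 3 operated sheep (Ovis aries) sampled 6 months after surgery. Aortic sinus and pulmonary sinus came from 4 other sheep, named D3 to D6, each of which gave both tissues. The design text calls these animals non-operated, but the label of aortic replicate 1 (animal D3) gives its treatment as Ross surgery and the labels of the other native libraries give Control. It was analysed as aortic sinus. Only the main fit was repeated without it, and the fits with other tools include it. The labels do not give age, sex or breed, and the autograft and its native counterparts come from different animals.

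A cytotoxic lymphocyte kills a target cell by releasing granules at the point of contact. Perforin from the granules opens the target's membrane, and granzymes enter through it. Interleukin-2 and interleukin-15 drive the growth and survival of these cells through receptors that share the beta chain encoded by IL2RB. In an artery wall such cells are few beside smooth muscle cells and fibroblasts, and their transcripts are correspondingly rare.

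Total counts per library lay between 17380599 and 20741334, and levels below are CPM, counts relative to the library total, in which 3 counts of a library come to 0.145 to 0.173 CPM before scaling. CPM were scaled by the trimmed mean of M values (TMM) and come from 3 autograft libraries and 4 of each native sinus, each from its own animal within a group. In bulk tissue a change in the number of cells and a change in RNA per cell cannot be told apart. Smooth muscle markers were abundant in all 3 groups but lower in every autograft library than in every native one. Their summed level was 23454 to 46450 CPM in the autograft, 47438 to 67120 CPM in aortic sinus and 49503 to 80284 CPM in pulmonary sinus. Of the 6 markers, 2 were called lower in the autograft than in pulmonary sinus (5.29% of all genes) and 1 than in aortic sinus (1.43%). On the first principal component of all genes tested, pulmonary replicate 1 lay nearer to the autograft (-9.34) than any aortic library (-8.46 to 30.6), pulmonary replicate 4 lay within the aortic range (29.5), and the other 2 lay beyond it. On the second component autograft replicate 1 stood apart.

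All 7 genes were higher in every autograft library than in any of the 8 native libraries, which is the pattern they were picked for and is therefore given with no test. Among all 14979 genes tested, every autograft library lay above every pulmonary library for 10.9% and above every aortic library for 9.77%. The share above all 8 native libraries at once was not counted and can be at most 9.77%. The median log2 fold change of the 7 genes was 4.17 against pulmonary sinus and 2.84 against aortic sinus, while the median of all genes tested was 0.0013 and 0.0018. Both comparisons use the same autograft libraries. Each gene passed the filter on low counts, but CCL5, PRF1 and PLAC8 passed it only through their counts in the autograft.

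**Figure D1:**
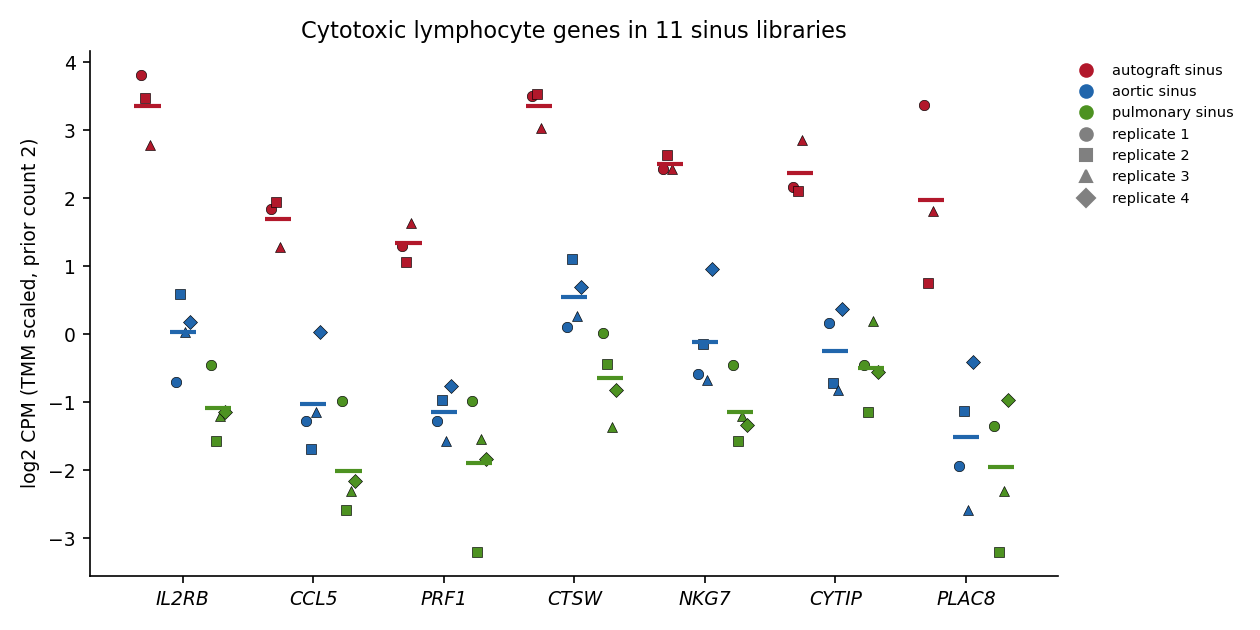
Level of each gene in each library, as log2 CPM with a prior count of 2 (vertical axis), by gene (horizontal axis). Colours are the sinus groups, symbols the replicate numbers and bars the group means. The 3 autograft libraries lie above the 8 native ones for each gene, and PLAC8 has the widest spread within the autograft.

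IL2RB encodes the receptor chain through which interleukin-2 and interleukin-15 signal. It stood at 14.0, 11.1 and 6.76 CPM in autograft replicates 1 to 3. The aortic libraries held 0.507, 1.40, 0.918 and 1.02 CPM and the pulmonary libraries 0.621, 0.228, 0.328 and 0.343 CPM. IL2RB averaged 10.6 ± 3.65 CPM (SD, n = 3) in the autograft, against 0.962 ± 0.367 CPM in aortic and 0.380 ± 0.169 CPM in pulmonary sinus (SD, n = 4 each). The lowest autograft library was 4.83 times the highest native one, aortic replicate 2. The log2 fold change was 4.78 ± 0.44 (SE) against pulmonary sinus and 3.45 ± 0.41 against aortic sinus, and these sizes moved by less than 1.5-fold whichever single library was left out.

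CCL5 encodes a secreted chemokine of activated T and NK cells that attracts further leukocytes. Its levels were 3.49, 3.73 and 2.33 CPM in the autograft, 0.304, 0.200, 0.344 and 0.913 CPM in aortic sinus and 0.395, 0.0571, 0.0937 and 0.114 CPM in pulmonary sinus. The last 3 values are 1, 2 and 2 counts, so the pulmonary level rests on few reads. Aortic replicate 4 and pulmonary replicate 1 were the highest of their groups. Group means of CCL5 were 3.18 ± 0.748 CPM in the autograft (SD, n = 3), 0.441 ± 0.321 in aortic and 0.165 ± 0.155 in pulmonary sinus (SD, n = 4 each). The log2 fold change was 4.23 ± 0.66 against pulmonary sinus and 5.04 without pulmonary replicate 1. Against aortic sinus it was 2.84 ± 0.60, and 3.46 without aortic replicate 4.

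The granule genes were PRF1, CTSW and NKG7. PRF1, which encodes perforin, stood at 2.36, 1.98 and 3.01 CPM in the autograft and at 0.304, 0.400, 0.230 and 0.483 CPM in aortic sinus. In pulmonary sinus it stood at 0.395, 0, 0.234 and 0.172 CPM. Pulmonary replicate 2 had no PRF1 count, which allows up to 3 counts there. PRF1 averaged 2.45 ± 0.521 CPM (SD, n = 3) in the autograft, against 0.354 ± 0.111 CPM in aortic and 0.200 ± 0.164 CPM in pulmonary sinus (SD, n = 4 each). The log2 fold change of PRF1 was 3.56 ± 0.64 against pulmonary and 2.76 ± 0.61 against aortic sinus.

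CTSW encodes cathepsin W, a cysteine protease of cytotoxic lymphocytes. It reached 11.2, 11.5 and 8.06 CPM in the autograft, against 0.964, 2.05, 1.09 and 1.5 CPM in aortic sinus and 0.904, 0.628, 0.281 and 0.457 CPM in pulmonary sinus. Group means of CTSW were 10.3 ± 1.91 CPM in the autograft (SD, n = 3), 1.40 ± 0.490 in aortic and 0.568 ± 0.265 in pulmonary sinus (SD, n = 4 each). Its log2 fold change was 4.17 ± 0.40 against pulmonary and 2.86 ± 0.38 against aortic sinus. NKG7, a granule membrane protein gene, had the most even levels among the autograft libraries, 5.29, 6.11 and 5.28 CPM, a coefficient of variation of 8.61%. In aortic sinus NKG7 stood at 0.558, 0.8, 0.517 and 1.83 CPM, with replicate 4 apart from the rest, and in pulmonary sinus at 0.621, 0.228, 0.328 and 0.286 CPM. NKG7 averaged 5.56 ± 0.478 CPM (SD, n = 3) in the autograft, against 0.925 ± 0.614 CPM in aortic and 0.366 ± 0.175 CPM in pulmonary sinus (SD, n = 4 each). Its log2 fold change was 3.9 ± 0.50 against pulmonary and 2.58 ± 0.46 against aortic sinus.

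CYTIP encodes a cytohesin-binding protein of lymphocytes and dendritic cells that restrains integrin adhesion. Autograft replicate 3 was its highest library, with levels of 4.39, 4.19 and 7.10 CPM in replicates 1 to 3. The native levels of CYTIP overlapped widely, at 1.01, 0.500, 0.459 and 1.18 CPM in aortic and 0.621, 0.343, 1.03 and 0.572 CPM in pulmonary sinus. Group means of CYTIP were 5.23 ± 1.62 CPM in the autograft (SD, n = 3), 0.789 ± 0.364 in aortic and 0.642 ± 0.286 in pulmonary sinus (SD, n = 4 each). Its log2 fold change of 3.0 ± 0.45 against pulmonary sinus was the smallest of the 7 in that comparison, and against aortic sinus it was 2.72 ± 0.45.

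PLAC8 encodes a small cysteine-rich protein found in several kinds of leukocyte and in other tissues, so it is not specific to cytotoxic cells. Its autograft levels of 10.3, 1.57 and 3.41 CPM spanned 6.55-fold, with replicate 1 the highest. In aortic sinus it stood at 0.152, 0.350, 0.0574 and 0.644 CPM and in pulmonary sinus at 0.282, 0, 0.0937 and 0.400 CPM, where pulmonary replicate 2 had no count, which allows up to 3. PLAC8 averaged 5.09 ± 4.60 CPM (SD, n = 3) in the autograft, against 0.301 ± 0.259 CPM in aortic and 0.194 ± 0.181 CPM in pulmonary sinus (SD, n = 4 each). The log2 fold change of 4.68 ± 0.94 against pulmonary sinus was 3.65 without autograft replicate 1 and 5.28 without pulmonary replicate 4. Against aortic sinus PLAC8 stood at 4.04 ± 0.90, at 3.02 without autograft replicate 1 and at 4.70 without aortic replicate 4.

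**Figure D2:**
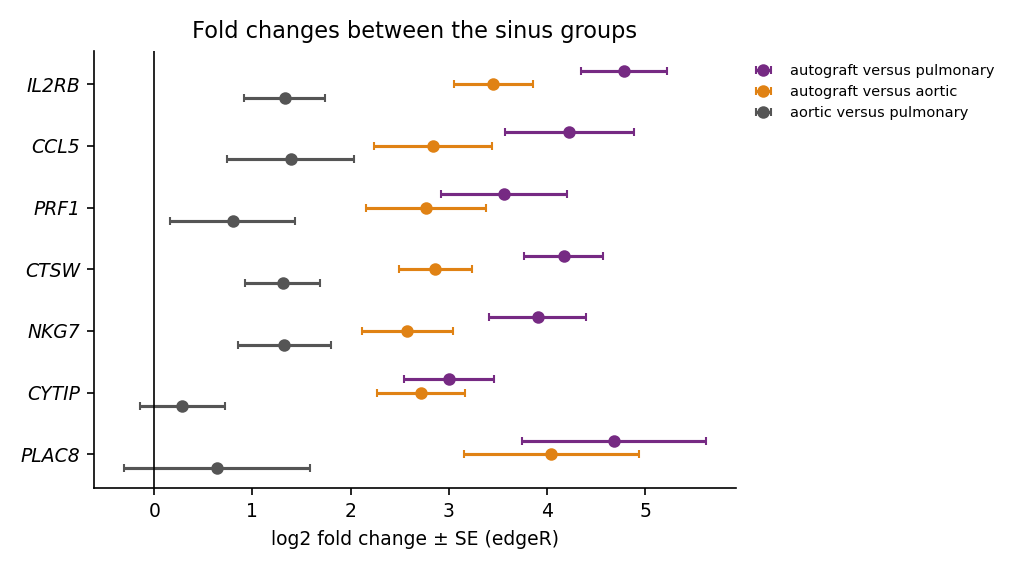
Log2 fold change of each gene (horizontal axis) with its standard error as bars, for the 3 comparisons shown by colour; genes are on the vertical axis. Values against pulmonary sinus lie between 3.0 and 4.78, values against aortic sinus between 2.58 and 4.04, and the difference between the native sinuses lies between 0.29 and 1.39.

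The autograft libraries did not keep 1 order over the 7 genes. Replicate 1 was the highest for IL2RB and PLAC8, replicate 2 for CCL5, CTSW and NKG7, and replicate 3 for PRF1 and CYTIP. As deviations from the group means over the 11 libraries, the 21 pairs of genes had correlations from -0.50 to 0.83 with a median of 0.48. CCL5 and NKG7 were the closest pair, at 0.83. CYTIP ran against CTSW (-0.50) and IL2RB (-0.28), the 2 pairs below 0. These correlations are descriptions over libraries that share few counts per gene, and 8 of the 11 libraries come from 4 animals.

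Levels of different genes can be compared only per transcript length, for which the authors' FPKM (fragments per kilobase of transcript, scaled to library size) served. In the autograft the authors' FPKM was 7.49 ± 1.42 (SD, n = 3) for CTSW, 5.16 ± 4.27 for PLAC8, 4.32 ± 0.12 for NKG7, 3.30 ± 0.75 for CCL5, 1.93 ± 0.60 for IL2RB, 1.05 ± 0.32 for PRF1 and 0.544 ± 0.176 for CYTIP. The spread of PLAC8 covers the levels of both its neighbours in this order, so its place is not fixed. Low FPKM values did not always follow the counts. Pulmonary replicate 2 had 0 counts of PLAC8 and of PRF1 in both runs, and the authors' FPKM there was 0.418 and 0.285 for PLAC8 and 0.145 and 0.0985 for PRF1.

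Other leukocyte genes were also higher in the autograft, so each gene was set against PTPRC, the CD45 gene carried by all leukocytes. PTPRC itself stood at 24.8, 24.7 and 17.5 CPM in the autograft and between 2.53 and 9.45 CPM in the native libraries. Per PTPRC count, IL2RB gave 0.476 in the autograft, 0.156 in aortic and 0.0956 in pulmonary sinus, from the summed counts of each group. The autograft ratio was thus 3.04 times the aortic and 4.98 times the pulmonary one. For IL2RB, CCL5, CTSW and NKG7 the ratio in every autograft library lay above that in every native library. It did so for 10 of 14978 genes (0.0668%), the named genes among them. PTPRC was itself higher in the autograft, so a low share follows. The 7 genes were picked for high autograft levels, which raises these ratios too, so they are a description only. For CTSW the 3 autograft ratios were nearly equal, between 0.451 and 0.467.

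The ratios of PRF1, CYTIP and PLAC8 to PTPRC overlapped between autograft and native libraries. For CYTIP the autograft ratio ran from 0.170 to 0.406, the aortic from 0.0633 to 0.244 and the pulmonary from 0.0866 to 0.407. Set against CD3E, which encodes part of the CD3 signalling unit of T cells, the autograft and native libraries were separate for 1 of the 7 genes, IL2RB, with 0.821 to 1.93 counts per CD3E count in the autograft, 0.385 to 0.792 in aortic and 0.324 to 0.500 in pulmonary sinus. Such separation from CD3E was seen for 4 of 14978 genes (0.0267%), IL2RB among them. CD3E too was higher in the autograft, so a low share follows here as well. The CYTIP ratio to CD3E summed over the group was 0.664 in the autograft, 0.448 in aortic and 0.710 in pulmonary sinus. CD3E had 8 to 34 counts per pulmonary library, so these ratios are coarse, and they were chosen after the levels were known.

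**Figure D3:**
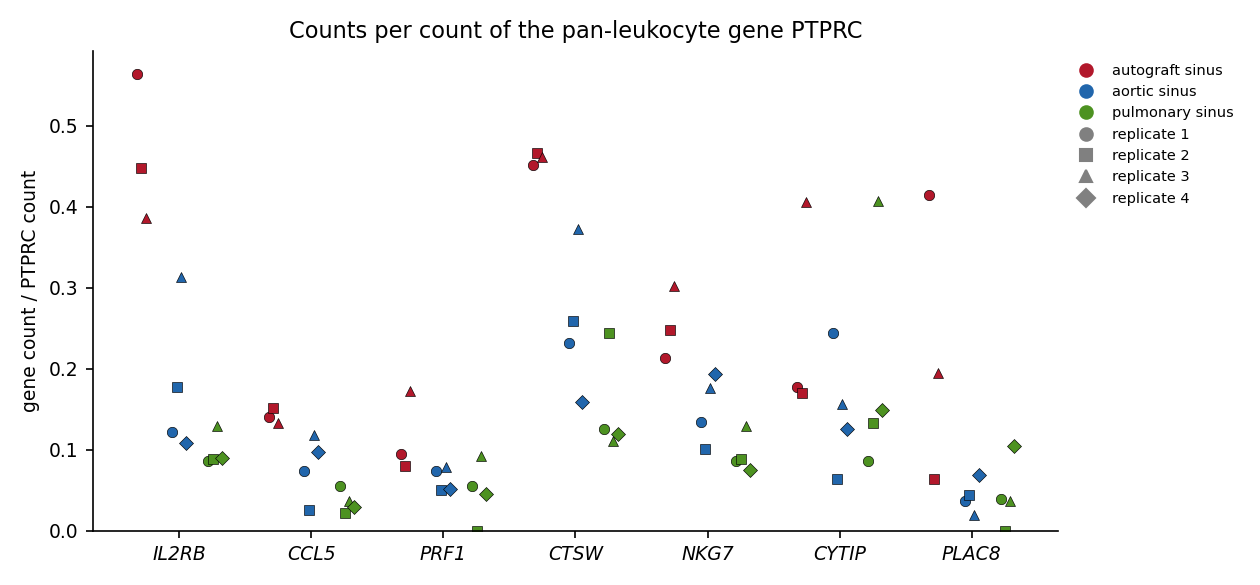
Count of each gene divided by the PTPRC count of the same library (vertical axis, from 0), by gene (horizontal axis), with colours for the sinus groups and symbols for replicate numbers. Autograft libraries lie above all native libraries for IL2RB, CCL5, CTSW and NKG7 and overlap with them for PRF1, CYTIP and PLAC8.

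The difference between the native sinuses was not used to pick the genes and could be tested. All 7 were higher in aortic than in pulmonary sinus on average, by a log2 fold change of 0.29 for CYTIP to 1.39 for CCL5, with a median of 1.31 against 0.0033 for all genes tested. None passed in edgeR's quasi-likelihood test with Benjamini-Hochberg adjustment (adjusted p = 1 for each, 0% of all genes called), and none passed in DESeq2 or limma-voom. At an unadjusted p under 0.05 there were 3 of the 7, CTSW (1.31 ± 0.38), IL2RB (1.33 ± 0.42) and NKG7 (1.32 ± 0.47), and 306 of the 14979 genes. For CTSW every aortic library lay above every pulmonary library, by a narrow margin of 0.964 against 0.904 CPM, which held for 0.714% of all genes. The median of the 7 differences was 1.61 without pulmonary replicate 1 and 0.76 without aortic replicate 4. The size for CCL5 (1.39 ± 0.65) was 2.21 without pulmonary replicate 1 and 0.76 without aortic replicate 4. For PLAC8 it was 0.64 ± 0.95, then -0.014 without aortic replicate 4 and 1.24 without pulmonary replicate 4. These differences are therefore not shown beyond the spread between animals.

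Within animals, the aortic sinus was higher than the pulmonary sinus for all 7 genes in D4 and D6, for 4 of 7 in D5 and for 2 of 7 in D3. Over all genes tested, deviations from the group means did not go together within D3 (r = -0.18) or D4 (-0.13). The pairs of these animals therefore rest on the labels alone. CTSW was higher in the aortic sinus of all 4 animals, by 0.083 in D3 and by 1.51 to 1.62 in the others on the log2 CPM scale. IL2RB, CCL5, NKG7 and CYTIP were higher there in 3 of 4 animals, and PRF1 and PLAC8 in 2. Animal D3 is the one whose aortic library carries the surgery label and whose pulmonary library had the highest IL2RB, CCL5, PRF1, CTSW and NKG7 of its group. With the animal as a fixed block over the 8 native libraries no member was called either.

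**Figure D4:**
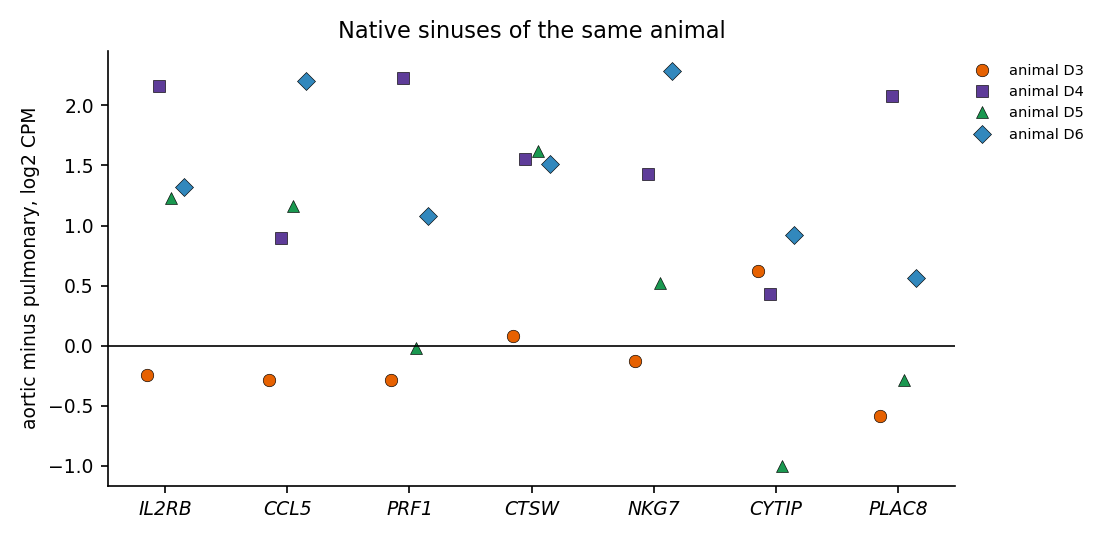
Aortic minus pulmonary level of each gene within 1 animal, in log2 CPM with a prior count of 2 (vertical axis), by gene (horizontal axis), with 1 symbol per animal. All 7 points of D4 and D6 lie above 0, while D3 has 2 and D5 has 4 above 0.

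The surrounding biology was described with 8 lists of other genes, which hold 108 genes with a row and 74 that passed the filter. Against pulmonary sinus 37 of the 74 rose in the autograft and 0 fell, where 6.05% of all genes rose and 5.29% fell. Against aortic sinus 7 of 74 rose and 0 fell, where 0.948% of all genes rose and 1.43% fell, and 40 had an unadjusted p under 0.05, as did 23% of all genes. Restricted to the 58 genes that also passed the filter in the native libraries alone, 22 rose against pulmonary sinus (5.65% of all genes in that fit) and 3 against aortic sinus (0.762%). The first count was 19 of 78 without autograft replicate 2 (1.56% of all genes), 21 of 74 without pulmonary replicate 2 (1.62%) and 21 of 74 without pulmonary replicate 3 (1.49%). The second was 0 without autograft replicate 2 (0.0658% of all genes) or without aortic replicate 1, 3 or 4 (0.114%, 0.0469% and 0.121%). It was 1 without autograft replicate 1 (0.584%) and 3 without autograft replicate 3 (0.661%). Without aortic replicate 2 it was 4 (0.229%), and without pulmonary replicate 1 it was 15 (1.81%).

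**Figure D5:**
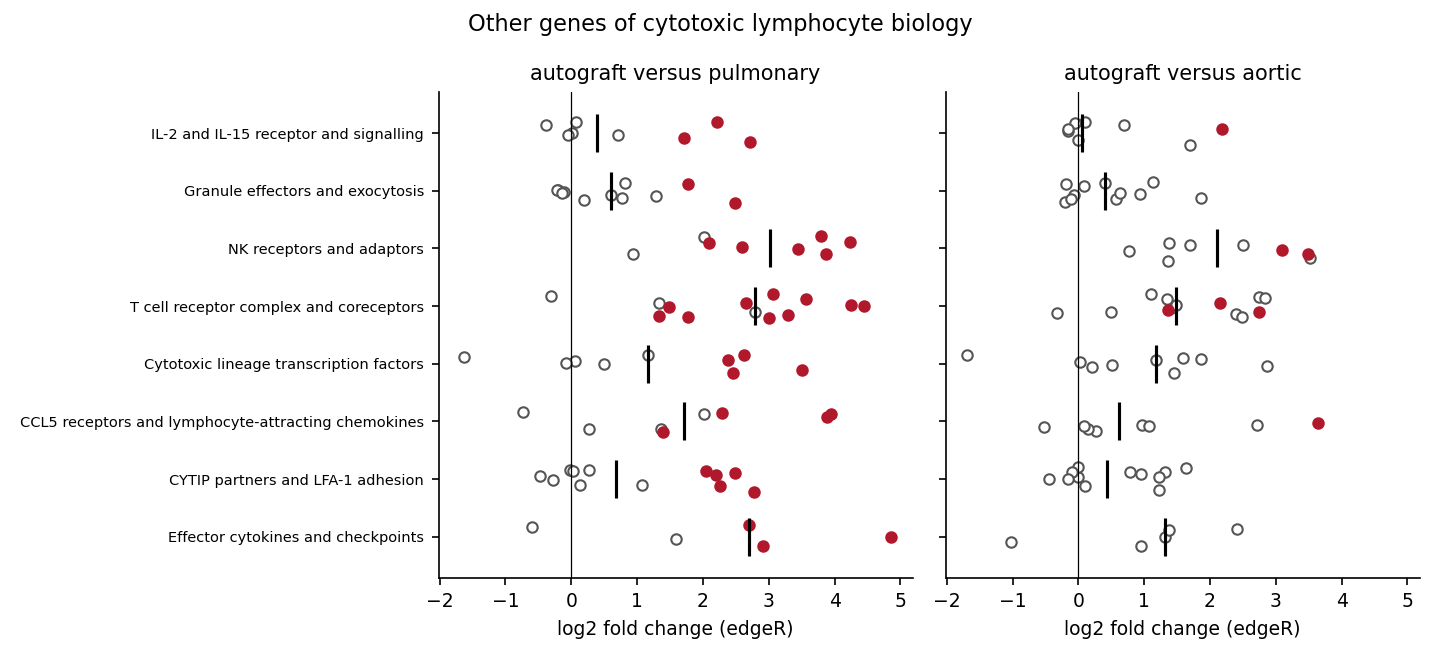
Log2 fold change (horizontal axis) of the 74 tested genes outside the 7, by list (vertical axis; vertical scatter has no meaning). Filled red points passed at an adjusted p under 0.05, open points did not, and black ticks are list medians. Against pulmonary sinus the medians are highest for NK receptors (3.02) and the T cell receptor list (2.79), and against aortic sinus 7 points are filled. In these lists only 3 of 8 and 7 of 13 genes passed the filter in the native libraries alone, which favours high medians.

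The partner chains of IL2RB differed among themselves. IL2RG, the common gamma chain, rose from 1.39 CPM in pulmonary and 1.98 CPM in aortic sinus to 9.11 CPM, a log2 fold change of 2.71 ± 0.39 (edgeR adjusted p = 0.00671) and 2.19 ± 0.38 (adjusted p = 0.0261). IL15RA, which presents interleukin-15, rose against pulmonary sinus (2.21 ± 0.42, edgeR adjusted p = 0.0144) and stood at 1.69 ± 0.41 against aortic sinus (adjusted p = 0.0586). Its libraries held 26.6, 15.2 and 8.18 CPM in the autograft, the same order as IL2RB. IL2RA, the alpha chain, did not pass the filter, at 0.210 CPM in the autograft, 0.285 CPM in aortic and 0.0282 CPM in pulmonary sinus, and IL2 had 0 counts in all 11 libraries. IL15, the cytokine itself, stood at 2.81, 3.12 and 2.79 CPM in autograft, aortic and pulmonary sinus (0.01 ± 0.29 against pulmonary). IL2, IL2RA and IL15 were named after their values were seen, as were the genes below that did not pass the filter. JAK3 rose against pulmonary sinus (1.71 ± 0.49, edgeR adjusted p = 0.0471), a call that ended in 8 of 11 fits with a library left out, with an adjusted p of 0.134 without autograft replicate 2. JAK1 (0.071 ± 0.107) and STAT5B (-0.38 ± 0.19) did not pass.

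Of the granule list 2 of 11 tested genes rose against pulmonary sinus, beside 6.05% of all genes. SRGN, the granule proteoglycan serglycin, rose by 2.49 ± 0.49 (edgeR adjusted p = 0.015) and the call ended without autograft replicate 2 (adjusted p = 0.0509). Its size was 3.17 without pulmonary replicate 1. CTSC, the protease that activates granzymes, rose by 1.77 ± 0.51 (edgeR adjusted p = 0.0469). That call ended in 9 of 11 fits with a library left out, with an adjusted p of 0.135 without autograft replicate 2. Both genes are also active in myeloid cells. Against aortic sinus 0 of 11 passed in edgeR, and 3 had an unadjusted p under 0.05, a share near the 23% of all genes. DESeq2 and limma-voom called 1 each, where 5.04% and 1.26% of all genes were called higher.

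GZMM, the granzyme that could be tested, did not pass. It stood at 4.39, 3.49 and 6.76 CPM in the autograft, at 3.87 to 6.8 CPM in aortic and at 4.12 to 6.75 CPM in pulmonary sinus. Its log2 fold change was -0.20 ± 0.29 against pulmonary and -0.18 ± 0.29 against aortic sinus, the latter 0.022 without autograft replicate 2. GZMK had 2 or 3 counts per autograft library and at most 1 elsewhere and did not pass the filter. GZMA, GZMB and GZMH were not analysed here. RAB27A (0.61 ± 0.21) and STXBP2 (1.28 ± 0.43), both of granule release, did not pass against pulmonary sinus in edgeR but did in DESeq2 (adjusted p = 0.0362 and 0.0281). RAB27A also passed in edgeR without pulmonary replicate 1 (adjusted p = 0.0134). FASLG, the Fas ligand, had 9 to 13 counts in each autograft library and 0 or 1 in each native one, too few for the filter. CST7, an inhibitor of cathepsins in these cells, had 9 to 12 counts in the autograft and 0 to 3 elsewhere.

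Of the receptors of NK cells and activated T cells, 6 of 8 tested genes rose against pulmonary sinus and 2 of 8 against aortic sinus. Among all genes 6.05% and 0.948% rose. Only 3 of the 8 passed the filter in the native libraries alone, so these counts favour genes that are high in the autograft. CD244 rose by 4.24 ± 0.70 (edgeR adjusted p = 0.00963) and by 3.49 ± 0.66 (adjusted p = 0.0312), from 0.137 and 0.230 CPM to 2.69 CPM. Without pulmonary replicate 1 the first size was 5.10. CD96 rose by 3.87 ± 0.64 (edgeR adjusted p = 0.00988) and 3.1 ± 0.61 (adjusted p = 0.0338). The mean pulmonary levels of CD244 and CD96 (0.118 CPM) were under the level of 3 counts. The adaptor gene HCST rose by 2.59 ± 0.47 against pulmonary sinus, and SLAMF7 by 3.8 ± 0.78 (edgeR adjusted p = 0.0167), which ended without autograft replicate 2 (0.0554) and without pulmonary replicate 3 (0.0532). FCGR3A (2.02 ± 0.84) and NCR3 (0.94 ± 0.42) did not pass against pulmonary sinus. NCR1, a defining NK receptor, had 2 counts in autograft replicate 1 and 0 in the other 10 libraries. KLRF1 had 8, 11 and 1 counts in the autograft and 0 to 4 elsewhere, and KLRD1 and KLRK1 were not analysed here.

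Among T cell receptor genes 10 of 13 rose against pulmonary sinus and 3 of 13 against aortic sinus, beside 6.05% and 0.948% of all genes. Only 7 of the 13 passed the filter in the native libraries alone, so these counts too favour genes that are high in the autograft. CD3E rose by 3.06 ± 0.45 (edgeR adjusted p = 0.00713) and 2.15 ± 0.43 (adjusted p = 0.0347), with libraries at 7.26, 8.15 and 8.23 CPM in the autograft and at most 2.5 CPM elsewhere. The kinase gene LCK (3.01 ± 0.54, edgeR adjusted p = 0.0124) and the surface gene CD5 (2.65 ± 0.48) rose against pulmonary sinus. The CD8 chains did not pass: CD8A stood at 1.91, 2.56 and 1.70 CPM in the autograft against 0.483 to 1.65 CPM in aortic and 0.229 to 1.47 CPM in pulmonary sinus, a log2 fold change of 1.34 ± 0.58 and edgeR adjusted p = 0.148 against pulmonary. All 3 autograft libraries of CD8A lay above the 8 native ones, by a narrow margin of 1.70 against 1.65 CPM. CD8B stood at 1.35, 3.38 and 6.13 CPM in the autograft and spanned 1.07 to 7.59 CPM in native sinus, with -0.31 ± 0.67 against pulmonary sinus. That sign changed without autograft replicate 1 (0.068) and without pulmonary replicate 3 (0.057). CD2 (2.79 ± 0.82) lay at the threshold, with an edgeR adjusted p of 0.0507, and passed in 13 of 24 alternatives, among them DESeq2 (adjusted p = 0.00739), limma-voom (0.0465) and the fit without pulmonary replicate 1 (3.44, edgeR adjusted p = 0.026), and CD4 had at most 5 counts in a library.

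The 7 calls against aortic sinus were IL2RG, CD244, CD96, CD3E, LCK (2.75 ± 0.53), the chemokine gene XCL1 (3.64 ± 0.72) and CD247 (1.36 ± 0.27), the signalling chain shared by T and NK receptors, which was named after its values were seen. With the filter on native libraries alone, added after seeing the data, IL2RG, CD3E and CD247 stayed called. CD244, CD96, LCK and XCL1 did not pass that filter and were tested only with the autograft counts included. CD247 also rose against pulmonary sinus (1.33 ± 0.27). That call ended without autograft replicate 2 (edgeR adjusted p = 0.0509), with the 2 groups alone (0.0532) and in run 2 alone (0.0554). None of the 7 aortic calls held whichever library was left out, with highest edgeR adjusted p from 0.0834 for IL2RG to 0.0969 for CD96 and LCK. All 7 ended without autograft replicate 2 and without aortic replicate 1, 3 or 4, fits in which 0.0469% to 0.121% of all genes rose. Some also ended without autograft replicate 1 or 3 or aortic replicate 2. XCL1 stood at 4.42 without aortic replicate 2, and its mean aortic level of 0.0636 CPM was under the level of 3 counts. Of the 29 genes named from the lists and called against pulmonary sinus, 15 stayed called whichever library was left out, among them IL2RG, IL15RA, CD244, CD96, CD3E and LCK.

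Of 9 tested transcription factor genes, 4 rose against pulmonary sinus, beside 6.05% of all genes. IKZF3, a lymphocyte zinc finger factor, rose by 3.51 ± 0.70 (edgeR adjusted p = 0.0155), and HOPX by 2.46 ± 0.49 except without autograft replicate 2 (adjusted p = 0.0566). PRDM1 rose by 2.62 ± 0.60 (edgeR adjusted p = 0.0225). That call ended without autograft replicate 2 (adjusted p = 0.0665), without pulmonary replicate 2 (0.066) or 4 (0.0512) and with the 2 groups alone (0.0516). Without pulmonary replicate 3 the size of PRDM1 was 3.39. RUNX3 rose by 2.38 ± 0.64 (edgeR adjusted p = 0.0388), which ended in 6 of 11 fits with a library left out. Without autograft replicate 3 it was 1.69 with an adjusted p of 0.124. The RUNX3 call also ended with the 2 groups alone (0.0642) and in run 2 alone (0.0625). BHLHE40 (-1.63 ± 0.52) and STAT4 (1.17 ± 0.43) did not pass against pulmonary sinus in edgeR but did in DESeq2 (adjusted p = 0.00604 and 0.0466). BHLHE40 also passed in edgeR without aortic replicate 2 (adjusted p = 0.0465). Against aortic sinus 0 of 9 passed in edgeR, and 6 had an unadjusted p under 0.05 (23% of all genes did). DESeq2 called 2 higher (5.04% of all genes) and 1 lower, and limma-voom called 1 higher (1.26%).

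TBX21 and EOMES, the T-box factors of cytotoxic lymphocytes, and ZNF683, a factor of resident lymphocytes, were too low for the filter. TBX21 had 14, 33 and 9 counts in the autograft, 1 to 3 in aortic sinus and 0 in all 4 pulmonary libraries, each of which allows up to 3. EOMES had 14, 7 and 20 counts in the autograft and 0 to 4 in native sinus. ZNF683 had 37, 27 and 3 counts in the autograft, so that replicate 3 was no higher than the 0 to 4 counts of the native libraries. The interferon-gamma gene IFNG had 1, 1 and 2 counts in the autograft and 0 in the native libraries.

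Of 8 tested genes of CCL5 receptors and related chemokines, 4 rose against pulmonary sinus, beside 6.05% of all genes. In the native libraries alone 6 of the 8 passed the filter. XCL1 rose by 3.89 ± 0.74 (edgeR adjusted p = 0.0142) and the chemokine receptor gene CXCR6 by 3.94 ± 0.77 (adjusted p = 0.0149), or 5.54 without pulmonary replicate 1. Their mean pulmonary levels, 0.0543 and 0.127 CPM, were under the level of 3 counts, so these sizes are coarse. CXCL16, the CXCR6 ligand gene, rose by 1.40 ± 0.30 (edgeR adjusted p = 0.0197), which ended without autograft replicate 2 (0.0699), pulmonary replicate 2 (0.0578) or pulmonary replicate 3 (0.0594). CXCL9 (2.02 ± 1.01) and CXCL10 (1.37 ± 0.95), ligands of CXCR3, did not pass. CXCL9 stood at 1.42 without autograft replicate 1 and at 2.85 without pulmonary replicate 3.

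Of 12 genes around CYTIP and the integrin LFA-1, 5 rose against pulmonary sinus, beside 6.05% of all genes. The cytohesin gene CYTH4 stood at 1.08 ± 0.35 against pulmonary sinus and did not pass in edgeR. It passed in DESeq2 (adjusted p = 0.021), and in edgeR with run 1 alone, without autograft replicate 3 or without pulmonary replicate 1 (adjusted p = 0.0473, 0.029 and 0.0469). ITGAL, the alpha chain of LFA-1, rose by 2.77 ± 0.53 (edgeR adjusted p = 0.0142), except in run 1 alone (adjusted p = 0.0672). ITGB2, its beta chain, rose by 2.20 ± 0.51. That call ended in 5 of 11 fits with a library left out, with an edgeR adjusted p of 0.0748 without autograft replicate 2. It also ended with the 2 groups alone (0.0567). ICAM1, the ligand of LFA-1, rose by 2.48 ± 0.61, which ended in 5 of these 11 fits, with an adjusted p of 0.0833 without pulmonary replicate 2. SELPLG rose by 2.26 ± 0.51, which ended in 4 of the 11, with an adjusted p of 0.0659 without pulmonary replicate 3. The SELPLG call also ended with the 2 groups alone (0.0546). RAP1A (-0.47 ± 0.19) did not pass in edgeR, except without autograft replicate 3 (adjusted p = 0.0411). Against aortic sinus 0 of 12 passed in edgeR, and 6 had an unadjusted p under 0.05 (23% of all genes did). DESeq2 called 1 higher (5.04% of all genes) and limma-voom 0 (1.26%).

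Of 5 tested cytokine and checkpoint genes, 3 rose against pulmonary sinus, beside 6.05% of all genes. In the native libraries alone 3 of the 5 passed the filter. IL18RAP, a chain of the interleukin-18 receptor, rose by 4.86 ± 0.94 (edgeR adjusted p = 0.0147), or 4.08 without autograft replicate 3, and LTB, lymphotoxin beta, by 2.91 ± 0.58 (adjusted p = 0.0155). TNF rose by 2.70 ± 0.75 (edgeR adjusted p = 0.0429), which ended in 8 of 11 fits with a library left out. Without autograft replicate 3 the adjusted p was 0.119, and without pulmonary replicate 1 the size was 3.79. The TNF call also ended with no filter except a count above 0 (0.0532) and with FPKM in limma (0.191). The mean pulmonary levels of IL18RAP (0.0544 CPM) and TNF (0.125 CPM) were under the level of 3 counts, so their sizes are coarse. HAVCR2 (1.59 ± 0.54) did not pass against pulmonary sinus in edgeR but did in DESeq2 (adjusted p = 0.0464) and in edgeR without autograft replicate 3 (adjusted p = 0.0259). LAG3, an inhibitory receptor of exhausted lymphocytes, stood at -0.60 ± 0.34 against pulmonary and -1.03 ± 0.34 against aortic sinus and did not pass in edgeR. DESeq2 called it lower than in aortic sinus (adjusted p = 0.045). Against aortic sinus 0 of 5 passed in edgeR, and 4 had an unadjusted p under 0.05 (23% of all genes did). DESeq2 called 1 lower and 0 higher (5.04% of all genes higher), and limma-voom called 0 (1.26%).

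Markers of other leukocytes moved beside these genes, and their part in the result was not tested. Pan-leukocyte markers (6 of 6 tested) summed to 207 to 368 CPM in the autograft, 73.4 to 160 CPM in aortic and 56.7 to 133 CPM in pulmonary sinus. Of these, 5 of 6 rose against pulmonary sinus (6.05% of all genes) and 1 of 6 against aortic sinus (0.948%). Of the macrophage and monocyte markers tested, 3 rose against pulmonary and 0 against aortic sinus. Macrophage and monocyte markers (11 of 12 tested) summed to 1325, 882 and 146 CPM in autograft replicates 1 to 3, so the library with the highest PRF1 and CYTIP was within the native range of 60.2 to 436 CPM. T cell markers (7 of 7 tested) summed to 25.2 to 29.9 CPM in the autograft against 5.03 to 14.8 CPM in native sinus. Of these, 4 rose against pulmonary and 2 against aortic sinus (6.05% and 0.948% of all genes). The sum includes CD8B, which did not pass and made up 7.59 of 11.3 CPM in pulmonary replicate 3. In autograft replicates 1 to 3 CD8B held 1.35, 3.38 and 6.13 CPM, so the even autograft sums do not hold for each gene. Dendritic cell markers (4 of 8 tested) summed to 14.8 to 19.6 CPM in the autograft and 2.06 to 8.32 CPM in native sinus. CLEC9A was at 0 in all native libraries.

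Plasmacytoid dendritic cell markers (3 of 5 tested) overlapped between groups, at 100 to 132 CPM in the autograft and 77.4 to 124 CPM in native sinus. B and plasma cell markers (2 of 8 tested) summed to 16.0 to 63.5 CPM in the autograft and 5.42 to 9.35 CPM in native sinus, with PAX5 at 0 throughout. Neutrophil and mast cell markers (3 of 8 tested) reached 6.13 to 40.9 CPM in the autograft and 1.20 to 6.39 CPM elsewhere. Endothelial markers summed to 190 to 1654 CPM in the autograft and 123 to 612 CPM in native sinus, adipocyte markers to 28.5 to 869 CPM and 8.43 to 432 CPM, and cardiac muscle markers to 392 to 1320 CPM and 255 to 2724 CPM. Fibroblast markers lay at 12611 to 15857 CPM in the autograft and 3163 to 8915 CPM in native sinus, without overlap.

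The genes most like the mean of the 7 over the 11 libraries were TMTC2, IKZF3, ATP6V1G1, LOC105614551, MS4A8, THBS1, NOP16, TXNDC5, S1PR4 and LOC105613002, with Pearson correlations of 0.957 to 0.971. Of the 14972 genes outside the 7, 1.31% had a correlation above 0.9. The measure was taken with the 3 groups pooled, which lie apart, so it mostly follows the gap between autograft and native libraries. As deviations from the group means the same 10 genes stood at 0.275 (LOC105614551) to 0.876 (IKZF3). IKZF3 and S1PR4 are lymphocyte genes, at 3.12 and 1.96 CPM in the autograft, whereas THBS1, the thrombospondin-1 gene of the matrix, stood at 421 CPM in the autograft, 65.6 CPM in aortic and 41.3 CPM in pulmonary sinus.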

How the data were processed

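RNA came from TRIzol extraction and went into TruSeq libraries (per the labels). Tools in the submitters' processing notes are featureCounts 1.5.3, STAR 2.5.2b, cutadapt and Bowtie2 2.3.3.1, with no role given. The sources used here do not name the build, annotation or strand setting, so reads of overlapping genes cannot be told apart; none of the 7 genes overlaps another gene in RefSeq (0 each). The deposited tables hold raw counts by gene symbol for 2 runs of each of 11 libraries, less a nameless row (at most 0.000522% of a library). The authors' FPKM served for levels per length and as an alternative; how the authors derived FPKM is not stated, and 4505 values of run 1 exceed 0 where the count is 0.

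The runs were summed, since they differed far less (chi-square per gene 1.38 to 1.51) than libraries of a group (30.1 to 105). After filterByExpr (14979 genes) and TMM scaling, 1 edgeR 4.0.16 quasi-likelihood model was fitted to the 3 groups without a block, in R 4.3.3, and the code was tested on simulated data. Genes with a Benjamini-Hochberg adjusted p under 0.05 over all genes were called. Replicates are separate animals per the labels, and both native tissues of D3 to D6 pair by animal. The correlation of paired deviations was -0.18 in D3 and -0.13 in D4, against 0.43 in D5 and 0.45 in D6. It was 0.40 across aortic D4 and pulmonary D3 and 0.26 across aortic D3 and pulmonary D4. Why D3 and D4 did not pair was not tested. Floors of 3 counts cover counting error only.

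The 7 genes, the lists and the alternatives were chosen with earlier results of these data known. Named are the 7 genes, up to 4 called and 2 uncalled genes per list by smallest p, all granzymes and CD8 chains, and the 10 most similar genes. The alternatives were RLE scaling, other filters, DESeq2 1.42.0, limma-voom (limma 3.58.1), limma on FPKM, single runs, 2 groups alone, the animal as a block and libraries left out. A filter on native libraries alone was added after seeing the data. Some genes that this rule names are not reported here.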

Additional observations from a re-analysis of the deposited data

Results flagged for a closer look

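CCL5 in pulmonary replicate 1, at 0.395 CPM, lay far above the other 3 pulmonary libraries, with a gap of 0.831 of the group's range, just past Dixon's limit for 4 libraries. It holds 7 counts against 1, 2 and 2. It was the only 1 of 14 native groups of the 7 genes to do so, and chance marks about 1 group in 20.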

How the results depend on the processing

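The median log2 fold change of the 7 genes stayed between 3.93 and 4.47 against pulmonary sinus and between 2.72 and 3.14 against aortic sinus with 1 library left out. With log2(FPKM + 1), a scale that understates low genes, it was 1.77 and 1.55. PRF1 stood at 4.84 against pulmonary sinus and 1.74 between the native sinuses in run 1 alone. For the counts of list genes that rose, the share of all genes that rose in the same fit is given in brackets. Against pulmonary sinus the count was 37 (6.05%). It was 23 with the 2 groups alone (1.82%) and 23 in run 1 (5.04%). With the filter on native libraries, added after seeing the data, it was 22 (5.65%). With 1 library left out it was 19 (1.56%) to 40 (9.95%). Against aortic sinus it was 7 (0.948%). It was 23 with DESeq2 (5.04%), 16 with limma-voom (1.26%) and 13 with FPKM (1.22%). With 2 groups alone it was 12 (0.864%), in run 1 it was 3 (0.697%) and in run 2 it was 4 (0.895%). Without animal D3 it was 3 (0.304%), and with the native filter 3 (0.762%). With 1 library left out it was 0 to 15 (0.0469% to 1.81%). With the replicate block, the animal as a random effect in limma-voom, it was 14 (1.19%), beside 16 without the block. With either replicate block 0 of the 7 genes were called between the native sinuses. The cause of these changes was not tested.

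Signs changed for uncalled genes near 0. JAK1 against pulmonary sinus was -0.0045 without autograft replicate 1 and -0.0070 without pulmonary replicate 1 as well, and up to 0.12 with another library left out. CD8B (lowest -0.93 against pulmonary and -0.94 against aortic sinus, both without autograft replicate 3) was 0.068 and 0.057 against pulmonary sinus without autograft replicate 1 or pulmonary replicate 3, and 0.079 and 0.063 against aortic sinus without autograft replicate 1 alone or with pulmonary replicate 1. GZMM against aortic sinus was 0.022 without autograft replicate 2 and -0.49 without autograft replicate 3. CXCL9 against aortic sinus (0.15) was -0.044 in run 1, -0.43 without autograft replicate 1, -0.23 without aortic replicate 1, -0.15 without aortic replicate 2, -0.23 without D3, -0.44 without autograft and pulmonary replicate 1, and 1.19 without aortic replicate 3. CXCL10 (-0.52) was 0.22 with limma-voom, 0.22 with the random block 0.38 without aortic replicate 4 and -0.91 without aortic replicate 1. PLAC8 between the native sinuses was -0.014 without aortic replicate 4 and 1.24 without pulmonary replicate 4. Depth limits the pulmonary values of CCL5, PRF1 and PLAC8, which rest on 12, 15 and 14 counts over 4 libraries.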
